A study of Mus musculus with 9 samples.

Results

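The 10 myosin light chain genes described here are Myl1, Mylpf, Myl2, Myl3, Myl4, Myl6, Myl6b, Myl9, Myl12a and Myl12b. They were chosen by name, as a gene family, with earlier results of these data known. The files of cultured cells list 46078 genes and those of muscle 38293. All 10 were listed in both sets of files. RNA sequencing counts were available for 9 libraries from C57BL/6 mice. Primary myoblasts (MB), the cultured progenitors of muscle fibers, made up 2 libraries, and 2 more came from MB that received 10 mM sodium-L-lactate in PBS. Myotubes (MT), the fused cells that MB form after 3 days in differentiation medium, made up 2 libraries. The control MB and MT received PBS alone, and the labels mention overnight incubations without giving the hours of each. The remaining 3 libraries were from whole gastrocnemius muscle (GAS) of female mice aged 8 to 12 weeks, a limb muscle made mostly of fast fibers that also holds vessels, nerve and connective tissue. The study used MT and MB to relate gene expression to histone lactylation across differentiation, and lactate to ask whether it moves MB toward differentiation.

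Myosin II, the motor of contraction, is built from a pair of heavy chains, and each heavy chain carries 1 essential and 1 regulatory light chain on its lever arm. The essential chain stiffens the lever arm, and the regulatory chain is the site that light chain kinases phosphorylate. Muscle fibers make sarcomeric light chains in fast, slow and embryonic forms, whereas cells outside muscle, and MB before they fuse, rely on nonmuscle and smooth muscle forms.

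Essential and regulatory chains are encoded by 5 genes each. Among the essential genes, Myl1 encodes the fast skeletal chains, Myl4 the embryonic and atrial chain, and Myl3 the slow skeletal and ventricular chain. Myl6 encodes the nonmuscle and smooth muscle chain. Its relative Myl6b was grouped with the nonmuscle and smooth muscle genes here, a grouping made beforehand and not from its levels. Among the regulatory genes, Mylpf encodes the fast skeletal chain, Myl2 the slow skeletal and ventricular chain, Myl9 the smooth muscle chain, and Myl12a and Myl12b the nonmuscle chains. On GRCm38, Mylpf (ENSMUSG00000030672) lies on the plus strand of chr7:127208890-127214298 and Myl1 (ENSMUSG00000061816) on the minus strand of chr1:66924295-66945404. Myl4 (ENSMUSG00000061086) lies on the plus strand of chr11:104550663-104595753. Myl6 (ENSMUSG00000090841, chr10:128490860-128494145) and Myl6b (ENSMUSG00000039824, chr10:128494157-128498685) are neighbors on the minus strand of chromosome 10, and Myl12b (ENSMUSG00000034868, chr17:70973133-70990890) and Myl12a (ENSMUSG00000024048, chr17:70993656-71002878) are neighbors on the minus strand of chromosome 17. Myl9 (ENSMUSG00000067818) lies at chr2:156775420-156781658, Myl2 (ENSMUSG00000013936) at chr5:122100951-122113472 and Myl3 (ENSMUSG00000059741) at chr9:110741861-110769798, each on the plus strand. Counts were made per gene, over exons, so the alternative first exons of Myl1, which give its long and short proteins, were not told apart. Myl2 overlaps Ccdc63, Myl3 overlaps Pth1r, Myl4 overlaps noncoding genes and pseudogenes, and Myl12a and Myl12b overlap Gm26561 and, for Myl12a, Myom1. A second annotated gene with the symbol Myl12b (ENSMUSG00000117098) overlaps both Myl12a and Myl12b and was not used here. Whether counting used the strand is not stated in the sources used here, so reads of such partners could not be told apart.

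The promoters of the 3 sarcomeric genes most abundant in MT are printed first because these genes moved together, followed by that of Myl9 for comparison. Each runs 5′ to 3′ from 250 bases before to 50 bases from the RefSeq transcription start on GRCm38.p6. Capitals mark the E-box CAGCTG, a form of the CANNTG sequence that myogenic basic helix-loop-helix factors such as MyoD and myogenin bind, and, in Myl9, the CArG box that serum response factor binds and the E-box CAGGTG. The Mylpf promoter is chr7:127211358-127211657 on the plus strand, that of Myl1 chr1:66945007-66945306 on the minus strand, that of Myl4 chr11:104550413-104550712 on the plus strand and that of Myl9 chr2:156775214-156775513 on the plus strand.
Mylpf: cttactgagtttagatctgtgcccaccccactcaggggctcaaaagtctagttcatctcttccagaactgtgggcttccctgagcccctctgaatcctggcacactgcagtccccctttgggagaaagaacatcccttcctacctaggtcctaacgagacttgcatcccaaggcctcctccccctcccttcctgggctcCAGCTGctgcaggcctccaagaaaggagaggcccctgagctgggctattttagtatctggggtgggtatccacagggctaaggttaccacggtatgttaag
Myl1: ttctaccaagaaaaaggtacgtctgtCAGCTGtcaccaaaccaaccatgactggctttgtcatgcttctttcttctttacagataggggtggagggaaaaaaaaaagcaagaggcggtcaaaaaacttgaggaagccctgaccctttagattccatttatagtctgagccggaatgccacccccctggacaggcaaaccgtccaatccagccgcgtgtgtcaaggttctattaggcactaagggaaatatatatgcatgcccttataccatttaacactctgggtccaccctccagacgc
Myl4: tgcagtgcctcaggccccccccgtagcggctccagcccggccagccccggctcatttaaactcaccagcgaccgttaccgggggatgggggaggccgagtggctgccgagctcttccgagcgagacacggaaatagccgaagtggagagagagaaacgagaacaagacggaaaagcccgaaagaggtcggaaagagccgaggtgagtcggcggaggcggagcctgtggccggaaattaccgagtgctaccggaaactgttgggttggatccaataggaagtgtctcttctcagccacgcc
Myl9: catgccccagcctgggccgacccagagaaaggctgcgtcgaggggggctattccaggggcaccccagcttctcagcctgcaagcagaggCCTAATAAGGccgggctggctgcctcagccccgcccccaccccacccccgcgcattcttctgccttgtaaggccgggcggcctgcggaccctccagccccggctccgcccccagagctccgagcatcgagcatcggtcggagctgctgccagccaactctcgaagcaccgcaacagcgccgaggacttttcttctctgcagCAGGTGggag

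The E-box CAGCTG began 51 bases before the start of Mylpf and 224 bases before that of Myl1. No CANNTG, CArG box or MEF2 site was found in the Myl4 window. That window lies at the outer start of Myl4, which has 8 annotated transcripts, and no other start of Myl4 was searched. The Myl9 window held a CArG box that began 161 bases before the start, and 1 E-box after the start. Every motif searched was read on both strands, and every CAGCTG is also a CANNTG. Of 32851 RefSeq promoters of the same length, 16.3% held CAGCTG, 72.3% held CANNTG, 1.63% held a CArG box and 1.86% a MEF2 site. Among the other members, CAGCTG was also in the windows of Myl2 and Myl12a, and a CArG box in those of Myl3 and of 1 of 2 Myl6 starts. The Myl2 windows, chr5:122092474-122092773 and chr5:122092939-122093238, both lie before the Myl2 gene as placed above. The start of Myl2 in that placing was not searched.

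In the cultured libraries the total count ran from 5198247 to 10839516, and in GAS from 19307793 to 19941574. A count of 3, taken here as the limit of detection, equals between 0.223 and 0.533 CPM (counts normalized to the effective size of the library) in cultured cells and at most 0.156 CPM in GAS, and this limit covers counting error only. MT replicate 1 stood apart from the other libraries, with 28599 genes detected against 15548 to 17965 in the other cultured libraries. The summed level of 3 fibroblast markers (Pdgfra, Col1a1, Dcn) was 13530 CPM in MT replicate 1 and 1875 CPM in MT replicate 2, against 2.17 to 2.57 CPM in MB, and its part in the light chain results was not tested. Most of this sum was Col1a1, at 1762 to 13116 CPM in MT. Col1a1 and Dcn were called higher in MT, and Pdgfra, at 2.54 to 5.66 CPM there, was not called. The summed markers of muscle cells followed the labels. Those of 5 myotube markers were 104 to 197 CPM in MB and 8959 to 9004 CPM in MT. Those of 4 myoblast markers were 881 to 1266 CPM in MB and 193 to 413 CPM in MT. Most of the myoblast sum was Myod1, with a mean of 944 CPM in MB. Of these 4 genes, Pax7 was called lower in MT, and Myf5, Myod1 and Mki67 were not called. In bulk samples such as these, fewer cells of a type and less RNA per cell cannot be told apart.

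All light chain genes together took 0.204% ± 0.00024 (SD, n = 2) of the counts in MB, 0.196% ± 0.0064 (SD, n = 2) in lactate-treated MB, 1.10% ± 0.373 (SD, n = 2) in MT and 1.98% ± 0.102 (SD, n = 3) in GAS. The family thus took a larger part of the library in both MT libraries than in any MB library. The sarcomeric genes contributed 495 and 247 counts in MB, 65447 and 88043 in MT and 357170 to 409453 in GAS. The nonmuscle and smooth muscle genes contributed 17830 and 15647 counts in MB, 25718 and 19464 in MT and 5319 to 6471 in GAS. Of all counts, the sarcomeric genes thus took 0.00552% and 0.00318% in MB and 0.604% and 1.12% in MT, and the nonmuscle and smooth muscle genes 0.199% and 0.201% in MB and 0.237% and 0.248% in MT.

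**Figure D1:**
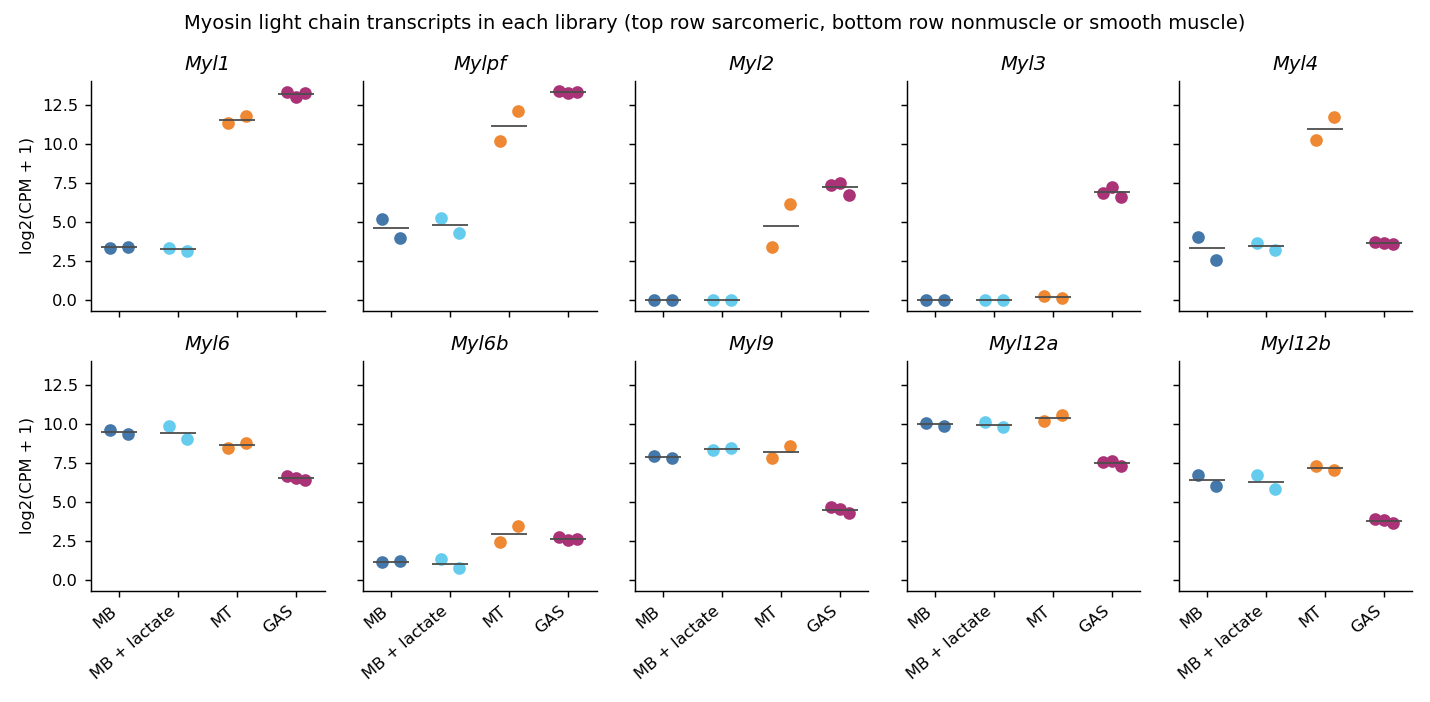
Level of each light chain gene in each library, as log2(CPM + 1), with 1 point per library and the group mean as a line. Myl1, Mylpf and Myl2 were highest in GAS, Myl4 was highest in MT, Myl3 was seen above the limit of detection only in GAS, and the nonmuscle and smooth muscle genes in the bottom row, other than Myl6b, were lowest in GAS.

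In MT against MB, 4 of the 9 members tested were called higher and none lower. The genes that rose were Myl1, Mylpf, Myl4 and Myl2, all of them sarcomeric. Myl2 had no count in MB and passed the filter on low counts through MT, so it could only be called higher. Of all 12921 genes tested, 11% were called higher and 6.86% lower, at an adjusted p under 0.05 and an absolute log2 fold change over 0.5 in edgeR's quasi-likelihood test. The median log2 fold change over the 9 members was 2.46, against 0.07 over all genes tested. The labels call the libraries biological replicates. The p-values rest on the spread between these 2 libraries a group, which edgeR moderates by the spread of all genes tested.

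Myl1, the fast essential chain, stood at 9.19 and 9.76 CPM in the 2 MB libraries and at 2508 and 3550.0 CPM in the 2 MT libraries. The MB values lay close together, and both MT values were far above them. The log2 fold change was 8.31 (SE 0.79, 95% interval 6.57 to 10.0), or 317-fold, with an adjusted p of 1.42e-04 in edgeR's quasi-likelihood test.

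Myl4, the essential chain of embryonic muscle and of the atria, stood at 15.3 and 5.06 CPM in MB and at 1215 and 3275 CPM in MT. The groups were far apart, but the 2 libraries of each group also differed widely between themselves. Its log2 fold change was 7.71 (SE 0.94, 95% interval 5.63 to 9.78), or 209-fold, with an adjusted p of 4.97e-04 in edgeR's quasi-likelihood test. Without MT replicate 2 the log2 fold change was 6.76 and without MB replicate 1 it was 8.74, and Myl4 was called under both.

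Mylpf, the fast regulatory chain, stood at 36.2 and 14.9 CPM in MB and at 1140.2 and 4302 CPM in MT. Its level in MT replicate 1 was well below that in MT replicate 2, which was also the order of Myl4 and Myl2. The log2 fold change was 6.66 (SE 0.94, 95% interval 4.59 to 8.73), or 101-fold, with an adjusted p of 0.0012 in edgeR's quasi-likelihood test. It was 5.35 without MT replicate 2, 7.29 without MT replicate 1, 6.06 without MB replicate 2 and 7.45 without MB replicate 1, and Mylpf was called each time.

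Myl2, the slow and ventricular regulatory chain, had no count in either MB library or in lactate-treated MB, and 127 and 545 counts in MT. On the CPM scale MT held 9.46 and 69.3 CPM, so the gene was present in both MT libraries at levels that differed widely. Against the detection limit of MB, taken per library, its mean in MT was at least 108-fold higher, with an adjusted p of 0.0017 in edgeR's quasi-likelihood test. The direction of this call was fixed by the filter on low counts, which Myl2 passed through MT. Taken alone, MT replicate 1 gives a bound of at least 25.9-fold and MT replicate 2 of at least 190.1-fold.

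Myl3, the slow and ventricular essential chain, had no count in the MB and lactate-treated libraries, and 3 and 1 counts in MT. These values are at or under the limit of detection, so Myl3 was not detectable in cultured cells at this depth, and it passed no filter and was not tested. In GAS it had 1852 to 2948 counts. The slow regulatory gene Myl2 was thus detected in both MT libraries, where its essential counterpart was not.

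**Figure D2:**
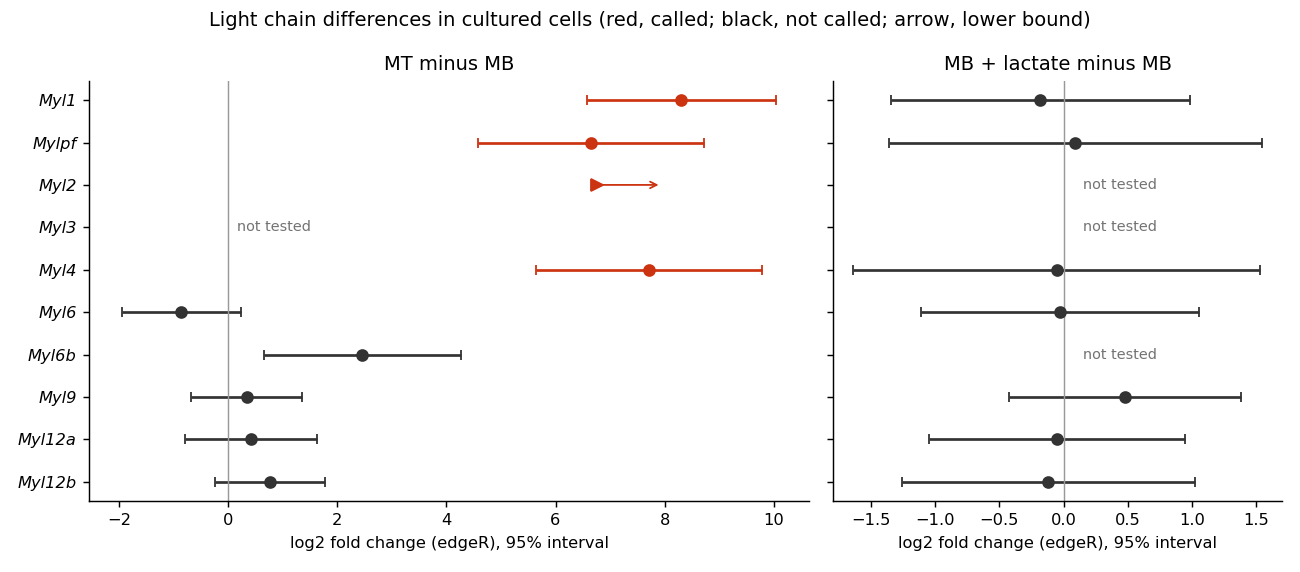
Log2 fold change of each member with its 95% interval, for MT minus MB on the left and lactate-treated MB minus MB on the right, from edgeR on 2 libraries a group. Myl1, Mylpf and Myl4 lie between 6.66 and 8.31 in MT, the arrow for Myl2 starts at its lower bound of 108-fold, and every interval for lactate crosses 0.

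None of the nonmuscle and smooth muscle members was called in MT against MB. Myl12a, a nonmuscle regulatory chain and the most abundant member by CPM in MB, stood at 1062 and 942 CPM in MB and at 1176 and 1515 CPM in MT. Both MT values were above both MB values, by less than the spread allows to call. The log2 fold change was 0.41 (95% interval -0.80 to 1.62, adjusted p = 0.645 in edgeR's quasi-likelihood test).

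Myl12b, its close relative, stood at 104 and 64.6 CPM in MB and at 157 and 131 CPM in MT, again with no overlap. Its log2 fold change was 0.76 (95% interval -0.25 to 1.77, adjusted p = 0.278 in edgeR's quasi-likelihood test). The 2 coding sequences were identical at 96.5% of aligned positions, and the longest stretch shared by their principal transcripts was 120 bases. How reads matching both genes were counted is not stated in the sources used here, so the split between Myl12a and Myl12b is uncertain.

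Myl9, the smooth muscle regulatory chain, stood at 249.6 and 220.2 CPM in MB and at 228 and 375 CPM in MT. The groups overlapped, and the log2 fold change was 0.34 (95% interval -0.68 to 1.35, adjusted p = 0.654 in edgeR's quasi-likelihood test). Of 6 smooth muscle markers 4 were tested in the same cells, and Acta2 and Tagln, which developing muscle also expresses, were called higher in MT, while Smtn and Des were not called. Cnn1, a defining marker, had no count in MB and 43 and 7 counts in MT. Myh11, another, had 1 and 0 counts in MB and 40 and 3 in MT. Neither passed the filter on low counts, so neither was tested, and the part of these cells in the level of Myl9 was not tested.

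Myl6, the essential chain shared by nonmuscle and smooth muscle myosin, stood at 768 and 657 CPM in MB and at 349 and 444 CPM in MT. Both MT values were below both MB values. The log2 fold change was -0.86 (95% interval -1.95 to 0.23), which was not called at an adjusted p of 0.253 in edgeR's quasi-likelihood test.

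Myl6b, the neighbor of Myl6, was low throughout, with 10 and 11 counts in MB and 59 and 79 in MT. It stood at 1.23 and 1.33 CPM in MB and at 4.39 and 10.05 CPM in MT, with no overlap. Its log2 fold change of 2.46 (95% interval 0.65 to 4.27) had an adjusted p of 0.060 in edgeR's quasi-likelihood test, just short of the threshold. Myl6b passed with DESeq2, at an adjusted p of 0.0293, and in edgeR with a filter of at least 10 counts in every library, at 0.0262.

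Lactate was added to MB to ask whether it shifts them toward differentiation, a shift in which Myl1, Mylpf, Myl4 and Myl2 rose. Of the 7 members tested, 0 were called in lactate-treated against control MB. The share called over all 11804 genes tested was 0%, at a p under 0.01 and an absolute log2 fold change over 0.5 in edgeR's quasi-likelihood test. The paper, which also used edgeR, reported a small set of genes up and down with lactate at these thresholds. The reason for this difference was not tested. At an unadjusted p under 0.05, the fit made here called 5 genes of all those tested and none of the members. That is far fewer genes than this threshold would pass if no gene changed. The lack of calls among the members thus shows little, and why so few genes passed was not tested. DESeq2 called 1 gene at the p under 0.01, no member either. The median log2 fold change was -0.05 over the 7 members and -0.0034 over all genes.

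Myl1 stood at 9.14 and 8.001 CPM with lactate, next to 9.19 and 9.76 CPM in the controls. Both treated values were below both controls by a small margin, and the interval of the log2 difference ran from -1.35 to 0.98. Mylpf stood at 37.4 and 18.7 CPM with lactate, which overlapped the controls, with an interval from -1.36 to 1.55. Myl4 stood at 11.8 and 8.36 CPM with lactate, within the range of the controls, with an interval from -1.64 to 1.53.

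For the 3 sarcomeric genes that MB express, these intervals end well below where the intervals for MT begin, which was 6.57 for Myl1, 4.59 for Mylpf and 5.63 for Myl4, and both comparisons share the MB libraries. They do not show that treated and control MB were alike, since changes inside them were not detectable with 2 libraries a group. Myl2 and Myl3 had no count in any MB library, with or without lactate.

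Myl9 was the member with the largest log2 difference under lactate, at 321 and 348 CPM against 249.6 and 220.2 CPM in the controls. Both treated libraries were above both controls. The log2 fold change was 0.48 (95% interval -0.43 to 1.38), with a p of 0.246 and an adjusted p of 1 in edgeR's quasi-likelihood test. Myl6, Myl12a and Myl12b overlapped between treated and control libraries, with log2 differences of -0.03, -0.05 and -0.12. Myl6b had 9 and 4 counts with lactate and was not tested.

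In GAS the fast pair dominated. Mylpf stood at 10339, 9600.0 and 9898 CPM and Myl1 at 10156, 8141 and 9508 CPM, with a mean of 9946 ± 372 (SD, n = 3) and 9268 ± 1029 (SD, n = 3). The GAS libraries held poly(A) RNA read as 150 bp pairs, and those of cultured cells came from 5 ng of RNA by Smart-seq2, so the 2 sets were not tested against each other and levels are set side by side only.

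Myl2 stood at 167, 181 and 107 CPM in GAS and Myl3 at 114, 149 and 96.1 CPM. These slow chains were more than an order of magnitude below the fast pair, and in both genes GAS replicate 2 was highest and GAS replicate 3 lowest. Myh7, the slow heavy chain, had the same order of libraries, at 330.2, 384 and 225 CPM.

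Myl4 stood at 12.3, 11.6 and 11.2 CPM in GAS, a level that lay between its 2 MB values. The nonmuscle and smooth muscle members were at 91.0 ± 7.95 CPM for Myl6, 178 ± 18.3 for Myl12a, 22.0 ± 2.75 for Myl9, 13.1 ± 1.29 for Myl12b and 5.31 ± 0.378 for Myl6b (SD, n = 3 each). Summed endothelial markers were at 110 to 129 CPM in GAS. Summed smooth muscle markers were at 2486 to 2558 CPM, of which Des alone gave 2354 to 2415 CPM. Des also stood at 1370 to 2900 CPM in MT, so this sum was not read as a measure of vessels. Smtn, Acta2, Myh11, Tagln and Cnn1 had means of 69.2, 22.5, 18.8, 18.3 and 1.10 CPM. The part of vessels in the light chain levels was not tested.

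To compare genes with each other, counts were divided by the total exon length of each gene and scaled in the same way (RPKM). In MB the order was Myl12a, Myl6, Myl9, Myl12b, Mylpf, Myl1, Myl4 and Myl6b, from 298 ± 25.2 down to 0.691 ± 0.038 RPKM (SD, n = 2). Myl6 did not differ from Myl9 beyond the spread, nor Myl12b from Mylpf. In MT the order began with Mylpf at 2562 ± 2105, Myl1 at 1460.4 ± 355 and Myl4 at 484 ± 314 RPKM (SD, n = 2), of which Mylpf overlapped Myl1, and Myl4 overlapped Myl12a, the fourth in the order.

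In GAS Mylpf at 9365 ± 350.1 RPKM was above Myl1 at 4469 ± 496 RPKM (SD, n = 3), and Myl2 at 77.7 ± 20.2, Myl3 at 58.6 ± 13.2 and Myl12a at 53.0 ± 5.44 RPKM followed with overlap between neighbors. Myl4 was last of the 10 in GAS, at 2.53 ± 0.12 RPKM. Exon lengths include rare transcripts. They weigh the level down most for Myl4 (4637 bases in all against 879 in its principal transcript) and Myl6 (3187 against 665). By the length of the principal transcript, Myl6 at 1155 and 988 led Myl12a at 548 and 487 RPKM in MB, and Myl6 at 524 and 668 was above Myl9 at 202 and 333 RPKM in MT. In MT, Myl4 then lay above Myl12a without overlap, and Myl1 had a higher mean than Mylpf, with overlap. In GAS, Myl4 was above Myl12b and Myl6b, and Mylpf and Myl1 overlapped.

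Within each library, the share of each member in its class needs no scaling between libraries. Sarcomeric genes took 4.90% and 2.76% of the light chain RNA per length in MB, 4.35% and 3.01% in lactate-treated MB, 78.1% and 87.1% in MT and 99.2%, 99.2% and 99.3% in GAS. Each MT library lay between MB and GAS, and the treated MB lay within the range of the controls.

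Among essential chains, Myl6 took 96.6% and 96.9% in MB but 6.91% and 5.44% in MT and 0.559% to 0.708% in GAS. Myl1 took 76.4% and 66.8% in MT and 97.4% to 98.3% in GAS. Myl4 took 16.6% and 27.6% of essential chain RNA in MT, and 0.0519% to 0.0620% in GAS. The embryonic chain was thus the second essential chain of MT and a trace in adult muscle. By principal transcript length the share of Myl4 in MT was 27.5% and 42.2%.

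Among regulatory chains, Myl12a took 52.5% and 55.3% and Myl9 35.7% and 37.4% in MB. In MT Mylpf took 63.8% and 82.6%, and in GAS 98.1% to 98.7%. Myl2 took 0.288% and 0.724% in MT, against 0.579% to 1.01% in GAS, so that the slow regulatory share of MT replicate 2 lay within the GAS range. Myl9 took 41.0% and 49.7% in lactate-treated MB, above both controls, which is the same Myl9 difference seen in its level and was not called there.

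**Figure D3:**
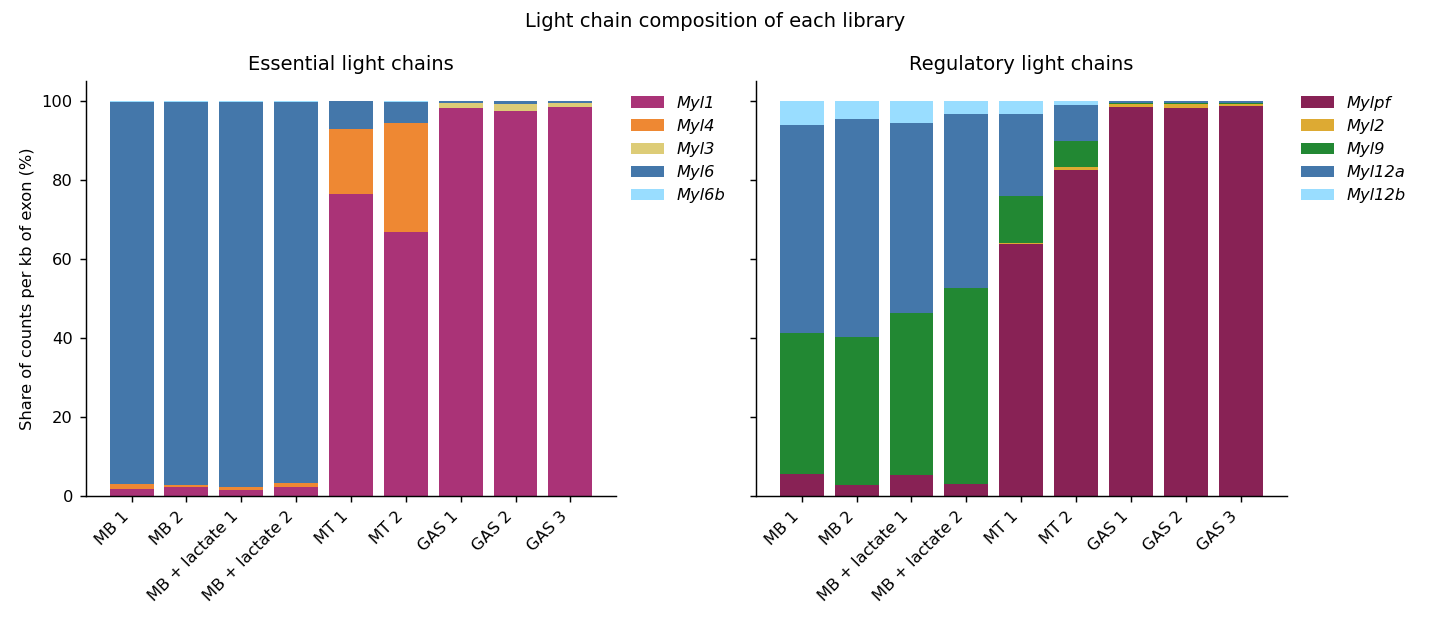
Share of each essential (left) and regulatory (right) light chain gene in the counts per kb of exon of its class, in percent, with 1 bar per library. Myl6 fills the MB bars at 96.6% and 96.9%, MT bars combine Myl1 and Myl4, and GAS bars are nearly all Myl1 and Mylpf.

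The balance of the fast pair differed between the 2 MT libraries. The ratio of Myl1 to Mylpf per length was 1.13 and 0.422 in MT, and 0.503, 0.434 and 0.492 in GAS. MT replicate 1 thus stood above all GAS libraries and MT replicate 2 just below them. By principal transcript length the ratios were 2.10 and 0.787 in MT and 0.809 to 0.937 in GAS, in the same order.

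The heavy chains that the light chains bind were counted as a list of 14 genes. Of the 10 tested in MT against MB, 8 were called higher and none lower, with a median log2 fold change of 7.51 against 0.07 over all genes when genes without counts in MB are set at their lower bound. Of all genes tested, 11% were called higher and 6.86% lower. Myh2, Myh4 and Myh14 had no count in MB and passed the filter on low counts through MT, as Myl2 did, so their calls were fixed in direction by that filter. The list and the light chains were chosen with earlier results of these data known. The embryonic heavy chain Myh3 rose from 12.3 and 8.68 CPM in MB to 1446 and 3963 CPM in MT, and the perinatal chain Myh8 rose by 8.83 on the log2 scale. The fast chain Myh1 rose by 8.60 and the slow chain Myh7 by 7.72, and Myh7b, at 1 and 2 counts in MB, reached 439 and 220 counts in MT.

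Myh4, the heavy chain of the fastest fibers, had no count in MB and was at least 369-fold higher in MT, and Myh2 was at least 36.5-fold higher. Myh14, a nonmuscle heavy chain with 28 and 17 counts in MT, was at least 5.82-fold higher. The nonmuscle heavy chains Myh9 and Myh10, which pair with Myl6, Myl12a and Myl12b, were not called, with log2 fold changes of -0.31 (95% interval -1.31 to 0.69) and -0.03 (95% interval -1.2 to 1.15).

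**Figure D4:**
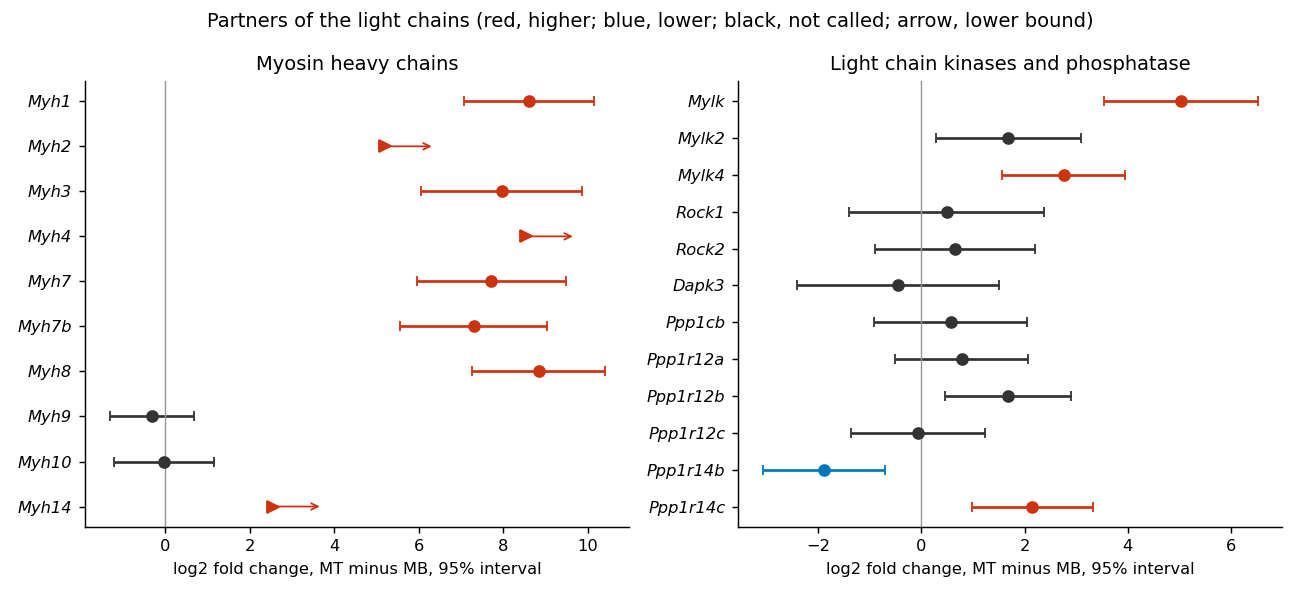
Log2 fold change with 95% interval in MT minus MB for the heavy chains (left) and for the kinases and phosphatase subunits that act on regulatory light chains (right), from edgeR on 2 libraries a group, with arrows starting at lower bounds. Sarcomeric heavy chains lie to the right, Myh9 and Myh10 lie near 0, and Ppp1r14b is the 1 gene called lower.

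Embryonic and slow forms were set side by side in heavy and light chains. Myh3 and Myh8 took 72.4% and 79.4% of the sarcomeric heavy chain RNA per length in MT and 0.0203% to 0.0344% in GAS, and the share of Myl4 in Myl1 and Myl4 was 17.8% and 29.2% in MT and 0.0527% to 0.0637% in GAS. Both embryonic shares were high in MT and traces in GAS, and the heavy chain share in MT was the higher in each library.

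The slow shares did not line up in this way. Myh7 took 13.1% and 18.1% of Myh1, Myh2, Myh4 and Myh7 in MT, against 0.224% to 0.411% in GAS. Myl2 took 0.45% and 0.87% of Mylpf and Myl2 in MT, against 0.583% to 1.02% in GAS. Myl3 took 0.00904% and 0.00363% of Myl1 and Myl3 in MT, resting on 3 and 1 counts, against 1.01% to 1.83% in GAS. The slow heavy chain therefore had a far larger share in MT than in GAS, the slow regulatory chain a share that overlapped that of GAS, and the slow essential chain was below detection in MT.

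**Figure D5:**
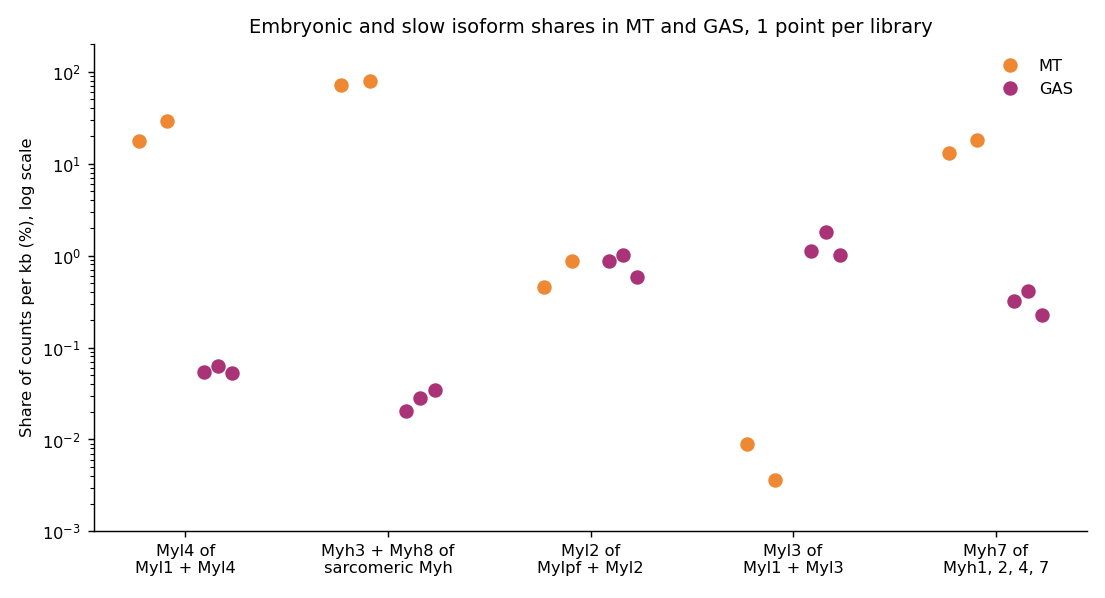
Share of embryonic (Myl4, Myh3 with Myh8) and slow (Myl2, Myl3, Myh7) forms in the RNA per length of the genes named, in percent on a log axis, with 1 point per MT or GAS library. Embryonic shares and the Myh7 share were higher in MT, the Myl2 share overlapped between MT and GAS, and the Myl3 share, which rests on 3 and 1 counts in MT, was higher in GAS.

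Sarcomeric light chain RNA per length exceeded that of sarcomeric heavy chains by 7.03 and 7.44 times in MT and by 1.2 to 1.24 times in GAS. By principal transcript length the ratios were 15.1 and 14.8 in MT and 2.08 to 2.18 in GAS. Heavy chain transcripts are several times longer than light chain transcripts, and the libraries of MT and GAS were prepared differently, so the part of the protocol in this difference was not tested.

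Genes that act on the regulatory chains were counted as a list of 14 kinases and phosphatase subunits. Of 12 tested in MT against MB, 3 were called higher and 1 lower, with a median log2 fold change of 0.71 against 0.07 over all genes. Of all genes tested, 11% were called higher and 6.86% lower. Mylk, the kinase of smooth muscle and nonmuscle regulatory chains, stood at 0.735 and 0.723 CPM in MB and rose to 21.7 and 27.2 CPM in MT, a log2 fold change of 5.03 (SE 0.67, adjusted p = 8.48e-04 in edgeR's quasi-likelihood test). Mylk4 rose by 2.76 on the log2 scale. Mylk2, the skeletal muscle kinase, was not called, at a log2 fold change of 1.68 (95% interval 0.28 to 3.09).

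Of the inhibitors of myosin phosphatase, Ppp1r14c rose by 2.15 and Ppp1r14b fell by 1.90 on the log2 scale. Rock1, Rock2, Dapk3, Ppp1cb, Ppp1r12a, Ppp1r12b and Ppp1r12c were not called. With lactate none of the 11 genes of this list that were tested was called.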

How the data were processed

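RNA sequencing counts of 9 libraries were analysed: 3 of GAS and 2 each of MB, lactate-treated MB and MT. The authors trimmed reads with Trim Galore 0.6.6, aligned them to mm10 with HISAT2 2.2.1 and counted them per gene with featureCounts of Subread 2.0.1, and the deposited values are raw counts. Annotation release, strand setting and the handling of reads with several alignments are not given in the sources used here. Columns were used as deposited, and CUT&Tag data were not used here.

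Names, coordinates and lengths of genes came from GENCODE M21 (GRCm38, the assembly called mm10) and promoters from RefSeq (GRCm38.p6), with all 10 members matched. MT and lactate-treated MB were each compared with MB, 2 libraries against 2, with edgeR 4.0.16 in R 4.3.3: the tool's filter on low counts, TMM normalization, the quasi-likelihood test and Benjamini-Hochberg adjustment over all genes tested. Calls needed an adjusted p under 0.05 (lactate, a p under 0.01) and an absolute log2 fold change over 0.5. Effective library sizes were computed for cultured cells and GAS separately, and CPM, RPKM and shares per exon length were computed with Python 3.11.15, numpy 2.4.6 and pandas 2.3.3.

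All members are named, together with genes of the listed heavy chains, kinases and phosphatase subunits past the threshold in MT against MB. The members and lists were chosen with earlier results of these data known. DESeq2 1.42.0, other size factors, filters, thresholds and lengths, a replicate block, all 6 cultured libraries in 1 fit and leaving out each replicate were tried. The principal transcript length and a crossed pairing were added after seeing the data.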

Additional observations from a re-analysis of the deposited data

How the results depend on the processing

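Myl3 in cultured cells and Myl6b in MB lie near the limit of detection, and each culture group had 2 libraries. In MT against MB, 95 of 98 alternative values for the 9 members tested kept the direction and the side of the threshold. Myl6b passed under DESeq2 and under the filter of at least 10 counts, which tests no gene without counts in MB and so leaves Myl2 out, and Myl9, never called, took log2 fold changes from -0.15 to 0.60 over the alternatives, with -0.15 without MT replicate 2. The number of members called higher was 4 under every alternative but DESeq2, which called 5, and 0 were called lower under any. Over all genes, 2312 were called, 1444 with at least 10 counts, 1232 without MT replicate 1 and 4921 without MT replicate 2, and the cause was not tested.

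With the replicate block, 4 members were called higher and 0 lower in MT against MB, and 0 were called with lactate. Libraries of the same number had deviations that correlated at -0.13 for MT and MB and 0.70 for lactate-treated and control MB, with only 2 numbers and no label that makes a number a shared source. The crossed pairing of MT and MB called 4 members and 2059 genes. For lactate the block called 13 genes of all those tested, DESeq2 and no filter 1 each, and leaving out 1 replicate between 1 and 177, the most without MB replicate 2, and none of these was a member.

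The lactate differences that changed sign were never called, and 17 of 70 alternative values did so. Myl4 was at 0.0052 with RLE size factors and with DESeq2 and at 0.094 with the replicate block, Myl6 at 0.041 with RLE and with DESeq2, and Myl12a at 0.0077 with both. Leaving out 1 replicate gave log2 differences from -0.44 to 0.96 for Mylpf, from -0.64 to 1.04 for Myl4, from -0.43 to 0.29 for Myl6, from -0.15 to 0.12 for Myl12a and from -0.57 to 0.36 for Myl12b. The sarcomeric share of light chain RNA, 3.83% in MB, 3.68% with lactate and 99.2% in GAS as means, was 2.13%, 2.11% and 98.4% without division by length, and 98.97% in GAS by principal transcript length. Shares of some single genes also depended on the length used. In MT, the mean share of Myl1 in essential chains was 71.6% by exon length and 56.1% by principal transcript length. That of Myl4 was 22.1% and 34.8%.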

Other observations

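Over the 6 cultured libraries, 8877 genes with a mean of at least 10 CPM were compared with Mylpf and Myl9 by the root mean square difference of log2(CPM + 1), each centered on its own mean. These distances are descriptions over libraries that share their protocol but not their depth, and they say nothing of shared control. The gene nearest to Mylpf was Tnnc1, the slow and cardiac troponin C, at 0.186, followed by Tnnt3 (0.386), Myh7 (0.394), Gprc5c (0.425) and Cav3 (0.426). Tnnc1 stood at 23.8 CPM in MB and 2606 CPM in MT, close to Mylpf, but at 55.8 CPM in GAS, where Mylpf was at 9946 CPM. Among the light chains, Myl4 ranked 24, Myl2 108 and Myl1 132 by this measure. Fast (Tnnt3) and slow (Tnnc1, Myh7) forms were thus both among the nearest.

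The genes nearest to Myl9 were Ubald1 (0.073), Pi4k2a (0.094), Dync2li1 (0.138), Pqlc2 (0.145) and Klc2 (0.146), none of them a myosin or a smooth muscle marker. Myl12a ranked 444, Myl6 3769 and Myl12b 4550. Many genes that changed little among these libraries lie near each other by this measure.

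A further pair of light chain genes lay outside the family described here, the atrial regulatory chain Myl7 and Myl10. They had 8 counts or fewer in each library and were not tested.

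Mylk4, which rose in MT, differed widely between GAS libraries, at 701, 393 and 1341 CPM.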
